A study of Mus musculus with 7 samples.

Results

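A set of 8 genes of the testis interstitium and of the cells that wrap the testis cords was followed, 4 genes of interstitial progenitors (*Pdgfra*, *Nr2f2*, *Tcf21* and *Maf*) and 4 contractile genes of smooth-muscle-like peritubular cells (*Acta2*, *Myh11*, *Tagln* and *Cnn1*). They were taken by symbol from a table of 24739 RefSeq genes, in which each of the 8 has 1 row. RNA-Seq was performed on whole testes of C57BL/6 mouse embryos at E14.5, with 1 pair of testes from a single embryo in each library. The groups are 3 libraries labelled wild-type (WT) and 4 mutant libraries homozygous for Glis3zf5, a mutation present in every cell of the embryo rather than in a chosen cell type. The allele lacks an exon and parts of the flanking introns of *Glis3*, which encodes a Krüppel-like zinc finger transcription factor. The question put to these genes was whether RNA of the somatic cells between and around the cords differs between the genotypes. Whole testes were sequenced, so fewer cells of a type and less RNA per cell cannot be told apart in any value below.

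The fetal testis is built of cords, in which Sertoli cells enclose germ cells, and of an interstitium with fibroblast-like progenitors, fetal Leydig cells, macrophages and vessels. Peritubular myoid cells lie flat along the outside of the cords, lay down the basement membrane together with Sertoli cells, and gain a smooth-muscle program of actin, myosin and their partner proteins that later moves sperm along the tubules. Sertoli cells send PDGF-A and desert hedgehog to the interstitium, where the PDGF receptor alpha and the hedgehog receptor Patched take up these signals. The contractile genes of smooth muscle are known targets of serum response factor (SRF), which binds a DNA element called the CArG box, and of its partners of the myocardin family.

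Expression is given as FPKM, a fragment count per unit of transcript length and per library, so that levels may be compared between genes. Between 18644 and 19081 genes had a value above 0 in each library. *Glis3* itself was checked first. WT replicates 1 to 3 held 7.63, 6.89 and 2.91 FPKM of it, and mutant replicates 1 to 4 held 3.86, 3.26, 2.90 and 2.66 FPKM. The library labelled WT replicate 3 therefore lay at the level of the mutants, and the differences of the 8 genes and the medians of the gene lists are given with and without it. FPKM covers the whole gene, exons that the allele keeps included.

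All 8 genes were detected in every library. *Pdgfra* was the most abundant, with a mean of 153.78 ± 0.90 FPKM (SD, n = 3) in WT testes, above 96.6% of the 13988 genes tested. *Tcf21* (95.3 ± 11.0 FPKM), *Acta2* (67.9 ± 9.66) and *Tagln* (38.1 ± 11.4) came next, followed by *Nr2f2* (24.9 ± 1.65) and *Maf* (12.3 ± 1.55). *Myh11* (7.55 ± 2.34) and *Cnn1* (1.62 ± 0.746) were lowest, and *Cnn1* lay above 14.4% of tested genes. Neighbours in this order did not overlap among the WT libraries, except *Tagln* and *Nr2f2*, whose order was turned in 1 of 7 libraries. Among the mutant libraries the order of the means was the same, and only *Tcf21* (88.9 to 111 FPKM) and *Acta2* (77.2 to 95.9) overlapped.

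Interstitial progenitor genes were higher on average in mutant testes by a median of 0.15 on the log2 scale, none passed the threshold, and the groups overlapped for each. Without the library labelled WT replicate 3 the median was 0.16. *Pdgfra* encodes the PDGF receptor alpha and lies at chr5:75152291-75198204 of mm10. WT replicates 1 to 3 stood at 153, 155 and 154 FPKM, and mutant replicates 1 to 4 at 179, 202, 157 and 148 FPKM. The WT libraries were nearly equal, with a coefficient of variation of 0.583%, while that of the mutants was 14.0% and their range enclosed all WT values. On average mutant exceeded WT by 0.15 on the log2 scale (SE 0.104, limma adjusted p = 0.504). *Nr2f2* (chr7:70351950-70366746) encodes the orphan nuclear receptor COUP-TFII, a transcription factor of interstitial cells. It was at 26.2, 23.1 and 25.5 FPKM in WT and 29.6, 31.4, 24.0 and 27.1 FPKM in mutant libraries, with mutant replicate 3 inside the WT range. The difference was 0.16 on the log2 scale (SE 0.0975, limma adjusted p = 0.423).

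*Tcf21* (chr10:22817275-22820128), a basic helix-loop-helix factor of gonadal mesenchyme, had the smallest difference of the 8. Values of 86.2, 92.2 and 107 FPKM in WT and 103, 111, 88.9 and 88.9 FPKM in mutant libraries covered the same range. On the log2 scale the difference was 0.04 (SE 0.106, limma adjusted p = 0.885). *Maf* (chr8:115703253-115706894), a leucine zipper factor of interstitial progenitors and macrophages, was the interstitial gene that differed most. It was at 12.6, 10.6 and 13.6 FPKM in WT and 16.6, 15.7, 13.3 and 16.0 FPKM in mutant libraries, and mutant exceeded WT by 0.32 on the log2 scale (SE 0.106, limma adjusted p = 0.21). Only mutant replicate 3 fell below the highest WT library. Libraries were made without regard to strand, and the annotation (GENCODE M21) places genes on the opposite strand over all or part of each of these 4 loci, Gm10824 along the whole of *Tcf21*, so that reads of both strands cannot be told apart there. Over *Acta2*, *Myh11* and *Cnn1* no other gene is annotated, and *Tagln* overlaps the antisense gene Gm48529 and the end of *Pcsk7*.

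**Figure D1:**
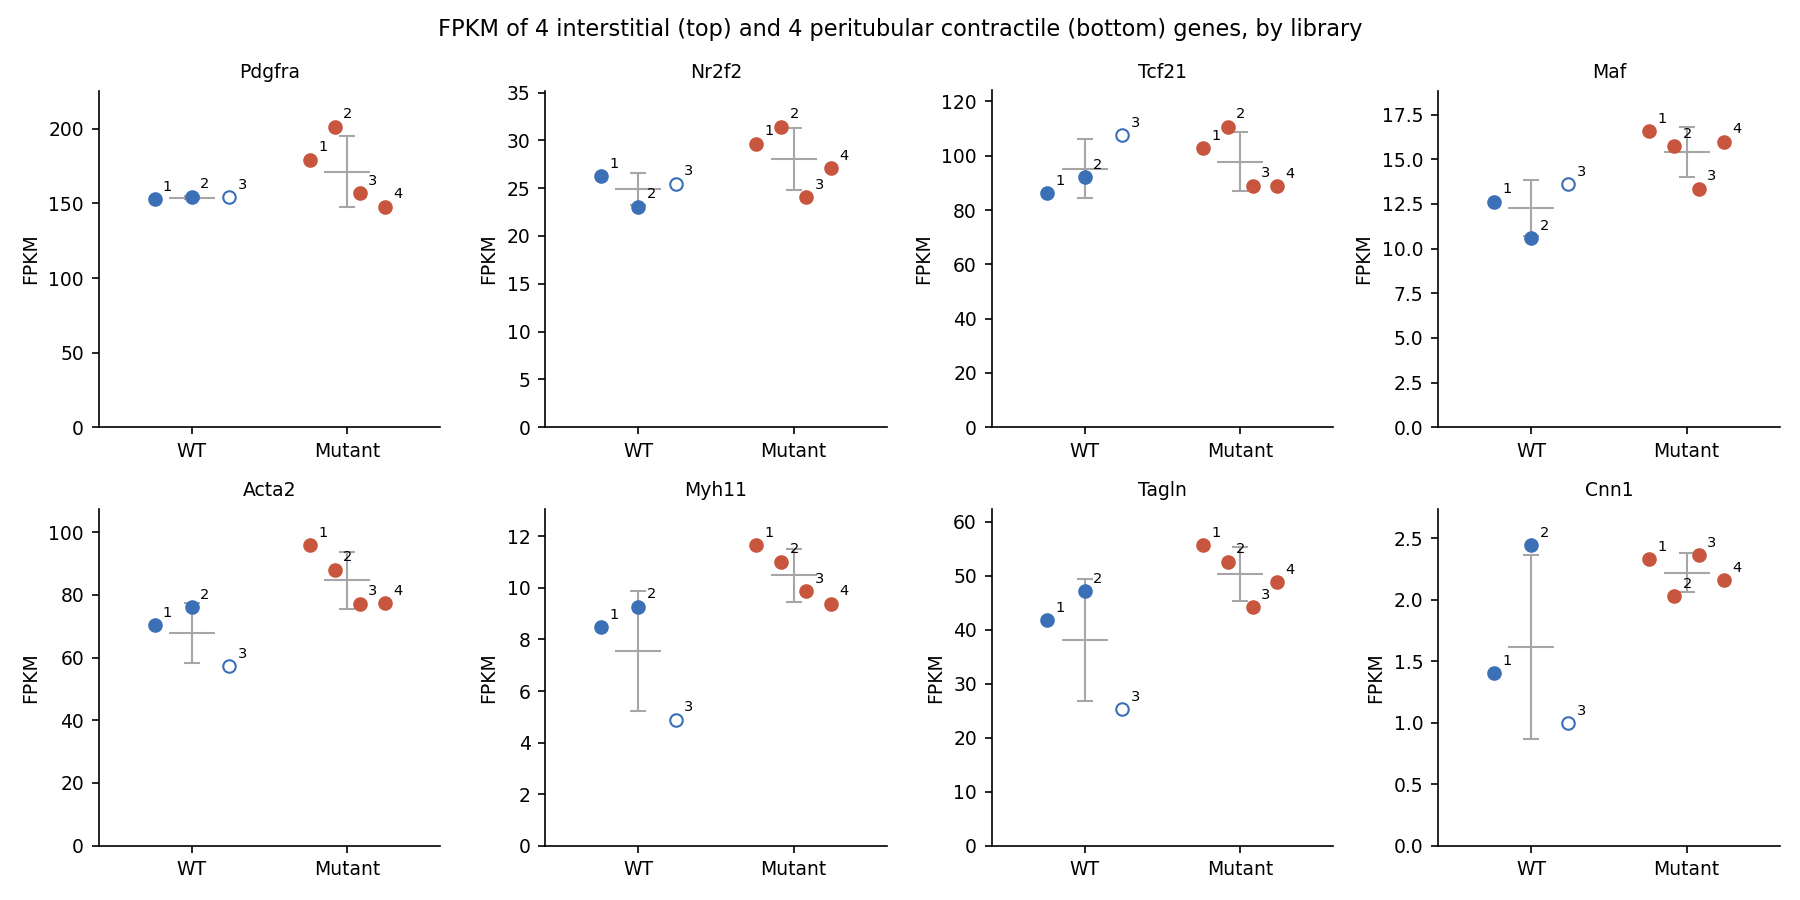
FPKM (vertical axis, from 0) of the 4 interstitial progenitor genes (top row) and the 4 contractile genes (bottom row) in 3 WT and 4 mutant libraries. Points are libraries with their replicate number, the open circle is the library labelled WT replicate 3, and grey bars are means ± SD. In the bottom row that library is the lowest of the 7 in each panel, whereas in the top row it lies among the others.

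Contractile genes were higher on average in mutant testes by a median of 0.43 on the log2 scale, and none passed the threshold. Without the library labelled WT replicate 3 the median was 0.20. Whether these medians differ from those of the interstitial genes was not tested. *Acta2* (chr19:34240336-34255373) encodes smooth muscle alpha-actin, the standard marker of differentiating peritubular myoid cells. WT replicates 1 to 3 stood at 70.3, 76.1 and 57.3 FPKM, and mutant replicates 1 to 4 at 95.9, 88.0, 77.2 and 77.3 FPKM. Every mutant library was above every WT library, with a gap of 1.02 FPKM between the groups, and mutant exceeded WT by 0.32 on the log2 scale (SE 0.115, limma adjusted p = 0.231). *Myh11* (chr16:14194527-14291408) encodes the smooth muscle myosin heavy chain, the motor that pulls on this actin. It was at 8.48, 9.28 and 4.89 FPKM in WT and 11.7, 11.0, 9.87 and 9.39 FPKM in mutant libraries. The groups did not overlap but came within 0.112 FPKM of each other, and mutant exceeded WT by 0.49 on the log2 scale (SE 0.193, limma adjusted p = 0.26).

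*Tagln* (chr9:45929628-45936058) encodes transgelin (SM22), an early actin-bundling protein of smooth muscle. It was at 41.8, 47.1 and 25.3 FPKM in WT and 55.7, 52.6, 44.2 and 48.8 FPKM in mutant libraries, so that mutant replicate 3 lay below WT replicate 2. The difference was 0.44 on the log2 scale (SE 0.192, limma adjusted p = 0.292). *Cnn1* (chr9:22099253-22109221) encodes calponin, an actin-binding brake on myosin that comes late in smooth muscle differentiation. It was at 1.40, 2.45 and 0.998 FPKM in WT and 2.33, 2.03, 2.36 and 2.16 FPKM in mutant libraries, with the highest value of all in WT replicate 2. The difference was 0.42 on the log2 scale (SE 0.207, limma adjusted p = 0.345).

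Because SRF is a known regulator of the contractile genes, the sequence from 250 bases before to 50 bases after the gene start was examined. An entry in the promoter table (RefSeq, GRCm38.p6) was present for 5 of 8 genes. These were the contractile genes *Acta2* and *Cnn1*, and the interstitial genes *Pdgfra*, *Nr2f2* and *Tcf21*. The CArG box was searched on both strands and was found in none of the 5, against 1.63% of 32851 mouse promoters of the same length. A CArG box with 1 base of its A/T core changed, a form searched once the exact search had given no match, was found in *Acta2* only, at 2 places, 84 to 75 and 34 to 25 bases before the start. It occurred in 9.98% of all promoters, and at 2 or more places in 0.822%. The exact string TATAAA was found on neither strand in the 5 genes and in 13.6% of all promoters. Variants of this string were not searched, so its absence does not show that a promoter lacks a related element. The *Acta2* and *Cnn1* promoters, those of the contractile genes that could be read, are shown 5′ to 3′ on the strand of the gene, with the relaxed CArG boxes in capitals (*Acta2* chr19:34255324-34255623, minus strand, and *Cnn1* chr9:22099003-22099302, plus strand).
Acta2: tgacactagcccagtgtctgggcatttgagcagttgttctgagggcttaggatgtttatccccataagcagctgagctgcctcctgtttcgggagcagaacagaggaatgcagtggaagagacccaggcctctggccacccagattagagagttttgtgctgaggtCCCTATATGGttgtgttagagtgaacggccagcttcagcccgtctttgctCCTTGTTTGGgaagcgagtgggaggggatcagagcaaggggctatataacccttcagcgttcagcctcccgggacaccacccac
Cnn1: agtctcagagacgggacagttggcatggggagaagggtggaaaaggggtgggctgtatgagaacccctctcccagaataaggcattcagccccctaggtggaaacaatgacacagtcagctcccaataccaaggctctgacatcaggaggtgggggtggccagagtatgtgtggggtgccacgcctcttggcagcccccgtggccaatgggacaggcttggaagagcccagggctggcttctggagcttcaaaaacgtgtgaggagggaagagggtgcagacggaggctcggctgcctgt
These matches are letters in a window and do not show binding.

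Over the 8 genes, log2 fold changes were above 0 in 8 of 8, against 52.1% of all genes tested, with a median of 0.32 against 0.00835. None of the 8 passed the adjusted threshold of 0.05 in limma, and 1 of the 13988 genes tested did (0.00715%). An unadjusted p under 0.05 was reached by 4 of the 8 (*Maf*, *Acta2*, *Myh11* and *Tagln*), all higher in mutants, and by 8.21% of genes in that direction. Every mutant library lay above every WT library for 2 of the 8 (7.31% of all genes) and below for none (7.59%). With 8 genes and groups of 3 and 4, these shares rest on few values, and genes of 1 cell type are not independent of each other. The 95% confidence intervals, not adjusted for the number of genes, still allow sizeable changes. On the log2 scale they ran from -0.09 to 0.38 for *Pdgfra*, from 0.06 to 0.58 for *Acta2* and from 0.05 to 0.93 for *Myh11*. Without the library labelled WT replicate 3 they ran from -0.14 to 0.43, from -0.04 to 0.44 and from -0.02 to 0.47, in this order.

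**Figure D2:**
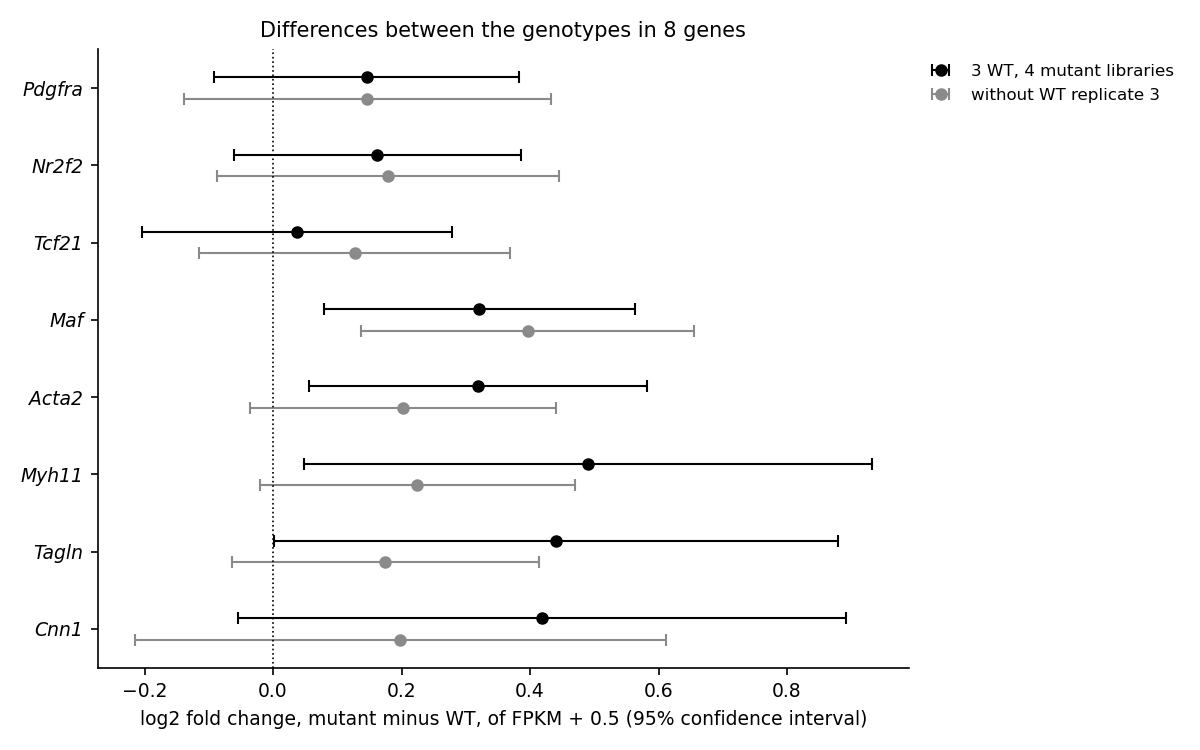
Log2 fold change of mutant over WT (horizontal axis, on FPKM + 0.5) of each gene with its 95% confidence interval from limma, for all 7 libraries (black) and without the library labelled WT replicate 3 (grey). The 4 contractile genes move toward 0 without that library, from 0.32 to 0.49 down to 0.17 to 0.22, and *Maf* moves away from it, from 0.32 to 0.40.

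A single library carried much of the contractile difference. The library labelled WT replicate 3 was the lowest of the 7 for each of the 4 contractile genes and for no interstitial gene. *Myh11* there was 4.89 FPKM against 8.48 in the next lowest library, and *Tagln* was 25.3 against 41.8 FPKM. Without it, log2 fold changes were 0.20 for *Acta2*, 0.22 for *Myh11*, 0.17 for *Tagln* and 0.20 for *Cnn1*, and the limma adjusted p was 0.282, 0.248, 0.355 and 0.556, in this order. The ratio of the group means fell from 1.39 to 1.18 for *Myh11* and from 1.32 to 1.13 for *Tagln*. The interstitial genes changed less, to 0.15 for *Pdgfra* and 0.18 for *Nr2f2*, while *Tcf21* came to 0.13 and *Maf* to 0.40 with an adjusted p of 0.0836 from limma. In that comparison 8 of 8 genes were above 0 (52.7% of all genes) and 0 passed the adjusted threshold (1.16% of 14019 genes did so upward). *Maf*, *Acta2* and *Myh11* were higher in every mutant than in both remaining WT libraries, which held for 15.6% of all genes.

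The balance of both gene groups was then set side by side within each library, as the mean log2(FPKM + 0.5) of the contractile genes minus that of the interstitial genes. This difference was -1.63, -1.29 and -2.25 for WT and -1.42, -1.60, -1.38 and -1.48 for mutant libraries, each in the order of their replicate numbers. The mutants (-1.47 ± 0.0959, SD, n = 4) fell between WT replicates 1 and 2, and the library labelled WT replicate 3 stood apart from the other 6. Interstitial means were 5.54, 5.46 and 5.64 in WT and 5.80, 5.87, 5.55 and 5.63 in mutant libraries, with mutant replicates 1 and 2 the highest. The ratio of *Myh11* to *Acta2* was 0.121 to 0.128 in 6 libraries and 0.0854 in the library labelled WT replicate 3.

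**Figure D3:**
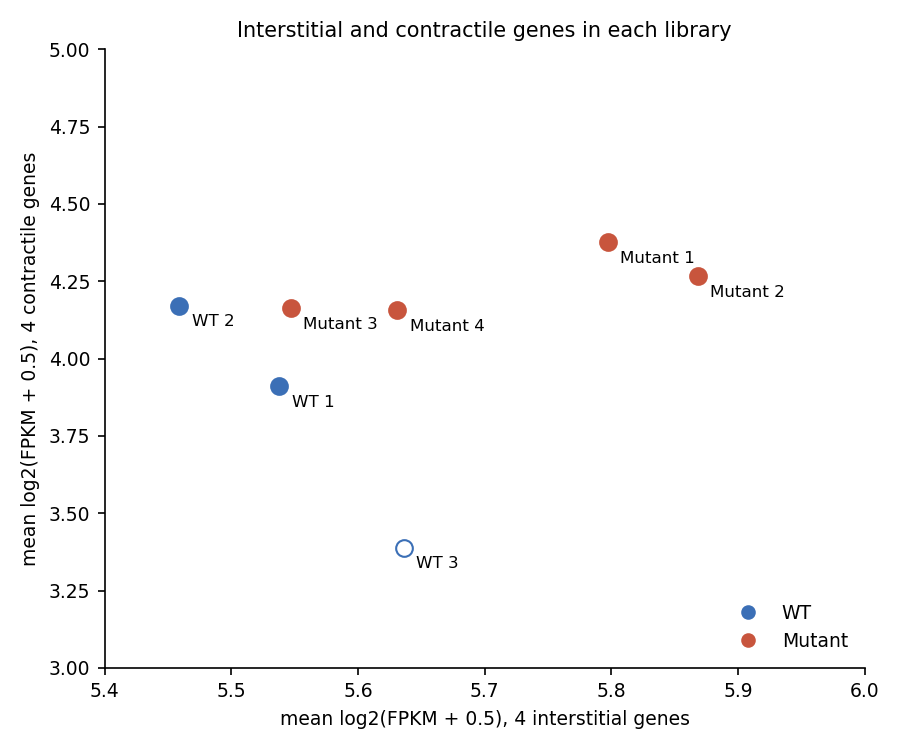
Mean log2(FPKM + 0.5) of the 4 interstitial genes (horizontal axis) and of the 4 contractile genes (vertical axis) in each library, blue for WT and red for mutant, with axes that do not start at 0. The library labelled WT replicate 3 (open circle) lies at 3.39 on the contractile axis, below the other 6 at 3.91 to 4.38, and at 5.64 on the interstitial axis, within their range.

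A separate readout came from reads of retrotransposon copies inside these genes, most of them in introns, which the authors counted apart from FPKM in the same libraries. No step selected poly-A tails, so reads of unspliced transcripts could be sequenced. Reads of all copies lying wholly within 1 protein-coding gene were summed per gene and scaled to CPM, so that libraries of unequal depth can be compared. Among the 8 genes, 5 had a mean of at least 10 reads, *Tagln* (4 loci, 6.29 reads per library) and *Cnn1* (8 loci, 4.14 reads) were too low to test, and *Tcf21* had no copy with reads.

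*Myh11* differed most in this readout. Its 113 copies, none of them in an exon, held 64, 59 and 52 reads in the WT libraries and 96, 79, 67 and 101 in the mutant libraries. Scaled, these were 16.1, 19.8 and 15.1 CPM in WT and 31.9, 27.8, 23.3 and 33.1 CPM in mutant libraries. Every mutant library was above every WT library, and the log2 fold change was 0.78 (adjusted p = 0.138 from edgeR's quasi-likelihood test). The library labelled WT replicate 3 did not stand apart here, and without it the log2 fold change was 0.71 (adjusted p = 0.115 from edgeR). No single copy carried the difference, since the copy with most reads held 5.79% of them. Whether transcription of the copies themselves adds to these reads was not tested.

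For *Pdgfra*, 55 copies gave 566, 631 and 632 CPM in WT and 765, 827, 695 and 631 CPM in mutant libraries, a log2 fold change of 0.26 (adjusted p = 0.315 from edgeR). Here 1 copy of the SINE B1_Mur2 in an exon (chr5:75197446-75197591) held 74.6% of the reads. With loci outside of exons only, the log2 fold change of *Pdgfra* was 0.28, and its unadjusted p was 0.060 (edgeR, adjusted p = 0.474). For *Acta2*, 10 copies outside of exons gave 14.0, 28.5 and 16.9 CPM in WT and 27.5, 22.2, 25.0 and 29.5 CPM in mutant libraries. WT replicate 2 lay among the mutants, and the log2 fold change was 0.42 (adjusted p = 0.469 from edgeR). *Maf* (6 copies) ran from 4.70 to 9.78 CPM in WT and from 9.49 to 12.3 CPM in mutants, and *Nr2f2* (2 copies) from 12.8 to 15.8 and from 11.6 to 25.0 CPM. Over the 5 genes, 5 of 5 log2 fold changes were above 0 (49.4% of the 11908 genes tested), 1 of 5 had groups that did not overlap (5.33%), 2 of 5 (*Pdgfra* and *Myh11*) an unadjusted p under 0.05 (6.65% of genes in that direction) and 0 passed the adjusted threshold, as did 1 gene of all (0.0084%). Without the library labelled WT replicate 3, the log2 fold changes were 0.29 for *Pdgfra*, 0.33 for *Acta2*, 0.56 for *Maf* and 0.17 for *Nr2f2*, and 0 of them passed the adjusted threshold in edgeR.

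**Figure D4:**
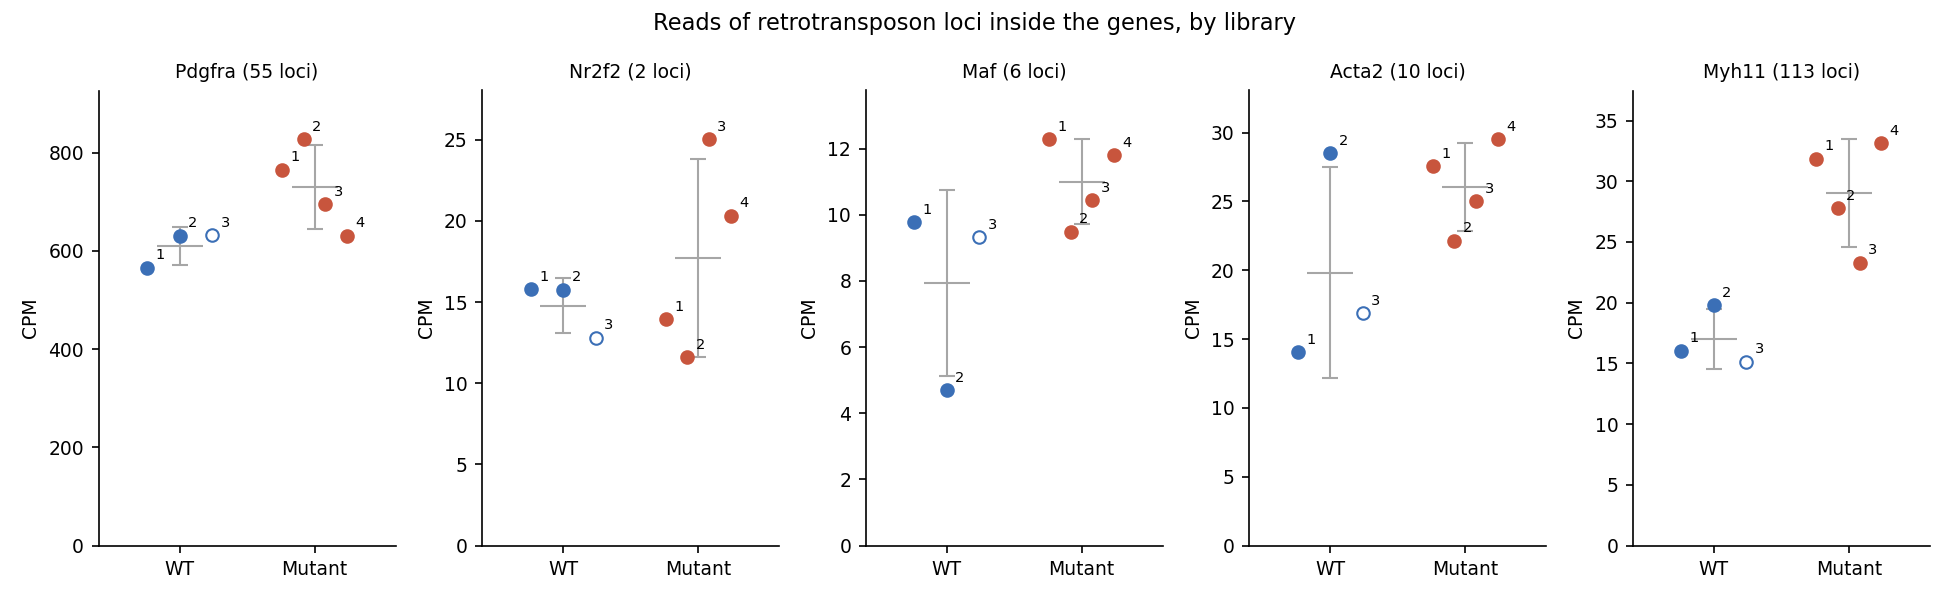
Reads of retrotransposon loci inside each gene (vertical axis, CPM from 0) in 3 WT and 4 mutant libraries, with the number of loci in each title. Points are libraries with their replicate number, the open circle is the library labelled WT replicate 3, and grey bars are means ± SD. For *Myh11* the mutants lie at 23.3 to 33.1 CPM, above the WT libraries at 15.1 to 19.8, and the groups overlap in the other 4 panels.

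Other genes of the same cells were read from lists written with earlier results of these data known. Of 15 further interstitial genes, 11 were higher and 4 lower in mutants, 0 had an unadjusted p under 0.05 or passed the adjusted threshold in limma, and the median log2 fold change was 0.05, or 0.11 without the library labelled WT replicate 3. *Dcn*, the matrix proteoglycan decorin, was highest of these with 145, 246 and 150 FPKM in WT and 213, 237, 210 and 253 FPKM in mutant libraries (log2 fold change 0.38, limma adjusted p = 0.317), and WT replicate 2 lay within the mutant range. *Igf1*, a growth factor, followed with a log2 fold change of 0.31. At the other end, *Wnt5a*, a secreted Wnt ligand, had -0.08 and *Nr2f1*, the close relative of *Nr2f2*, had -0.04.

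Of 13 further smooth muscle contractile genes that passed the filter on low values, 12 were higher in mutants and 1 was lower, and their median was 0.15 on the log2 scale. In limma 0 of the 13 passed the adjusted threshold. An unadjusted p under 0.05 was reached by 4, all higher in mutants, against 8.21% of all genes in that direction. *Tpm2*, beta-tropomyosin, which lies along the actin filament, was at 27.0, 26.4 and 25.1 FPKM in WT and 33.2, 31.3, 31.5 and 35.7 FPKM in mutant libraries. Its groups did not overlap, the library labelled WT replicate 3 lay close to the other WT libraries, and the log2 fold change was 0.32 (limma adjusted p = 0.156). *Cald1*, *Csrp1* and *Myl9*, named after their values were seen, also had groups that did not overlap. Every mutant library lay above every WT library for 4 of the 13, against 7.31% of all genes. *Lmod1*, leiomodin, which starts actin filaments in smooth muscle, had a log2 fold change of 0.34 from values under 1 FPKM, and at the other end stood the actin crosslinker *Flna* (0.05) and *Smtn*, smoothelin (-0.03). Without the library labelled WT replicate 3, 11 of the 13 were higher and the median was 0.13.

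Among 5 regulators of contractile genes, the coactivator *Myocd*, myocardin, was at 1.52, 1.76 and 1.33 FPKM in WT and 2.12, 2.23, 1.78 and 1.79 FPKM in mutant libraries. These groups did not overlap, by a small margin (log2 fold change 0.29, limma adjusted p = 0.287). *Srf* was at 11.3 to 12.5 FPKM in WT and 11.2 to 12.8 in mutants (log2 fold change -0.02). The myocardin-related cofactors went opposite ways, *Mkl1* with 0.09 and *Mkl2* with -0.24 (adjusted p = 0.7 and 0.274 from limma). The 5 regulators had a median of 0.04, or 0.01 without the library labelled WT replicate 3. Paralogs of the 8 genes, from which reads could be assigned wrongly, had a median log2 fold change of 0.05 over 20 genes, with and without the library labelled WT replicate 3. With it, 1 higher (*Mafk*, named after its value was seen) and 1 lower (*Mafg*) reached an unadjusted p under 0.05 in limma. Of all genes, 8.21% did so upward. The adjusted threshold was passed by 0 of the 20. Every mutant library lay above every WT library for 1 of the 20, *Mafk*, against 7.31% of all genes. The striated muscle actins *Acta1* (9.24, 0.424 and 0.151 FPKM in WT, and 3.34, 2.61, 0.258 and 16.2 in mutants) and *Actc1* varied widely in both groups and were highest in mutant replicate 4 and WT replicate 1, where *Acta2* was not. The lowest of the paralogs was *Mafg*, a small Maf protein, with -0.35 (limma adjusted p = 0.233).

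Signals that reach these cells were read next. In whole-testis RNA, *Pdgfa*, which encodes the ligand PDGF-A, had a larger log2 fold change than *Pdgfra*, which encodes its receptor. Whether these changes differ from each other was not tested. For *Pdgfa*, WT replicates 1 to 3 stood at 20.2, 21.9 and 18.5 FPKM, and mutant replicates 1 to 4 at 28.1, 29.3, 26.1 and 27.7 FPKM. All mutants were above all WT libraries by a wide margin relative to the spread in each group, and mutant exceeded WT by 0.45 on the log2 scale (SE 0.0744, limma adjusted p = 0.112). Without the library labelled WT replicate 3, *Pdgfa* passed the threshold, with a log2 fold change of 0.39 (limma adjusted p = 0.0287). In that comparison 162 of all 14019 genes (1.16%) passed it upward. Of the 7 PDGF ligands and receptors, *Pdgfra* included, 6 were higher in mutants, and the list had a median of 0.11 on the log2 scale. *Pdgfrl*, a receptor-like protein, had 0.35, the pericyte receptor *Pdgfrb* had 0.05 and the ligand *Pdgfb* had -0.05, with overlapping groups. Without the library labelled WT replicate 3, 7 of 7 were higher and the median was 0.15.

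Hedgehog pathway genes differed little. Of 12 that passed the filter, 9 were higher and 3 lower in mutants, 0 had an unadjusted p under 0.05 and 0 passed the adjusted threshold in limma, and the list had a median of 0.08 on the log2 scale, or 0.10 without the library labelled WT replicate 3. *Gas1*, a hedgehog co-receptor, had 0.18 and the transcription factor *Gli2* 0.17. The direct hedgehog targets lay on both sides of 0 with overlapping groups. The receptor *Ptch1* and the factor *Gli1* were lowest of the list with -0.12 and -0.13, and the antagonist *Hhip*, named after its value was seen, had 0.10. The levels were 13.7, 9.43 and 11.9 FPKM in WT against 11.6, 11.4, 10.2 and 9.24 FPKM in mutants for *Ptch1*.

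Markers of other cells were read beside these genes. Vascular mural cells share *Acta2*, *Myh11* and *Tagln* with peritubular cells. Of their 7 more specific markers, 2 were higher and 5 lower in mutants, and the list had a median of -0.06 on the log2 scale and a summed level of 61.3 to 72.6 FPKM in WT and 61.5 to 68.0 in mutants. *Cspg4* had 0.13 and *Kcnj8* -0.18 at the ends of this list. Endothelial markers split 4 and 4, with a median of -0.0021 and sums of 92.8 to 117 and 100.5 to 106 FPKM. The medians without the library labelled WT replicate 3 were -0.02 for mural and 0.05 for endothelial markers. In both lists 0 genes reached an unadjusted p under 0.05 in limma with all libraries.

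Fetal Leydig cell markers were higher in mutants for 6 of 6 genes, with a median of 0.47 on the log2 scale. Of these, 5 had an unadjusted p under 0.05 (8.21% of all genes in that direction) and 0 passed the adjusted threshold in limma. The list had a summed level of 1654 to 2724 FPKM in WT and 2578 to 3155 in mutants. *Insl3*, the testis descent hormone, was highest (190, 255 and 199 FPKM in WT and 389, 321, 305 and 335 in mutants, log2 fold change 0.66, limma adjusted p = 0.133), and *Cyp11a1*, the first enzyme of steroid synthesis, had 0.55. Without the library labelled WT replicate 3 the median was 0.41, and *Nr5a1*, a steroidogenic transcription factor, passed the threshold (limma adjusted p = 0.0364). Upward, 1.16% of all genes passed it there. Macrophages also express *Maf*. Their markers were higher for 7 of 7 genes with a median of 0.23. An unadjusted p under 0.05 was reached by 1 (8.21% of all genes in that direction) and the adjusted threshold by 0 in limma. Their summed level was 42.0 to 75.6 FPKM in WT and 57.0 to 94.2 in mutants. When the library labelled WT replicate 3 was left out, 6 of 7 macrophage markers were higher and the median was 0.36. *C1qb*, a complement subunit, had a log2 fold change of 0.41 (limma adjusted p = 0.247).

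Germ cell markers were lower for 6 of 6 genes, with a median of -0.81 and a summed level of 574 to 1316 FPKM in WT, the lowest in the library labelled WT replicate 3, and 466 to 614 in mutants. *Ddx4*, the germ cell RNA helicase, had a log2 fold change of -1.08 (limma adjusted p = 0.136). An unadjusted p under 0.05 in limma was reached by 5 of the 6, all lower in mutants, and the adjusted threshold by 0. Of all 13988 genes, 2379 reached that unadjusted p in either direction, 1149 of them higher in mutants. Without the library labelled WT replicate 3 the median was -1.09. The adjusted threshold was then passed by 5 of the 6, and by 560 of all 14019 genes downward. Skeletal muscle markers, foreign to the testis, were higher for 6 of 6 genes with a median of 0.66 and 0 at an unadjusted p under 0.05. Their median was 0.27 without the library labelled WT replicate 3. They summed to 3.48 to 24.6 FPKM in WT and 3.20 to 41.6 in mutants, and were high in WT replicate 1 and mutant replicates 1, 2 and 4. Sertoli cell markers (5 of 6 higher, median 0.14), surface epithelium markers (4 of 5, 0.02) and mesonephric and duct markers (1 of 3, -0.12) had 0 genes past the adjusted threshold in limma and 0, 0 and 1 at an unadjusted p under 0.05. Of 7 listed duct markers, 3 passed the filter on low values. The 1 gene was *Lhx1*, lower in mutants (log2 fold change -0.79, limma adjusted p = 0.178). Every mutant library lay below every WT library for it, against 7.59% of all genes. The paper also counts *Lhx1* among genes of undifferentiated spermatogonia. Without the library labelled WT replicate 3, the medians of the Sertoli, surface epithelium and duct lists were 0.31, 0.06 and -0.0023. The Sertoli marker *Ptgds*, prostaglandin D synthase, then passed the threshold (log2 fold change 0.44, limma adjusted p = 0.048), as 1.16% of all genes did upward. No listed marker was at 0 in all 7 libraries. The part of the Leydig, macrophage, germ cell and skeletal muscle values in the differences of the 8 genes was not tested.

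**Figure D5:**
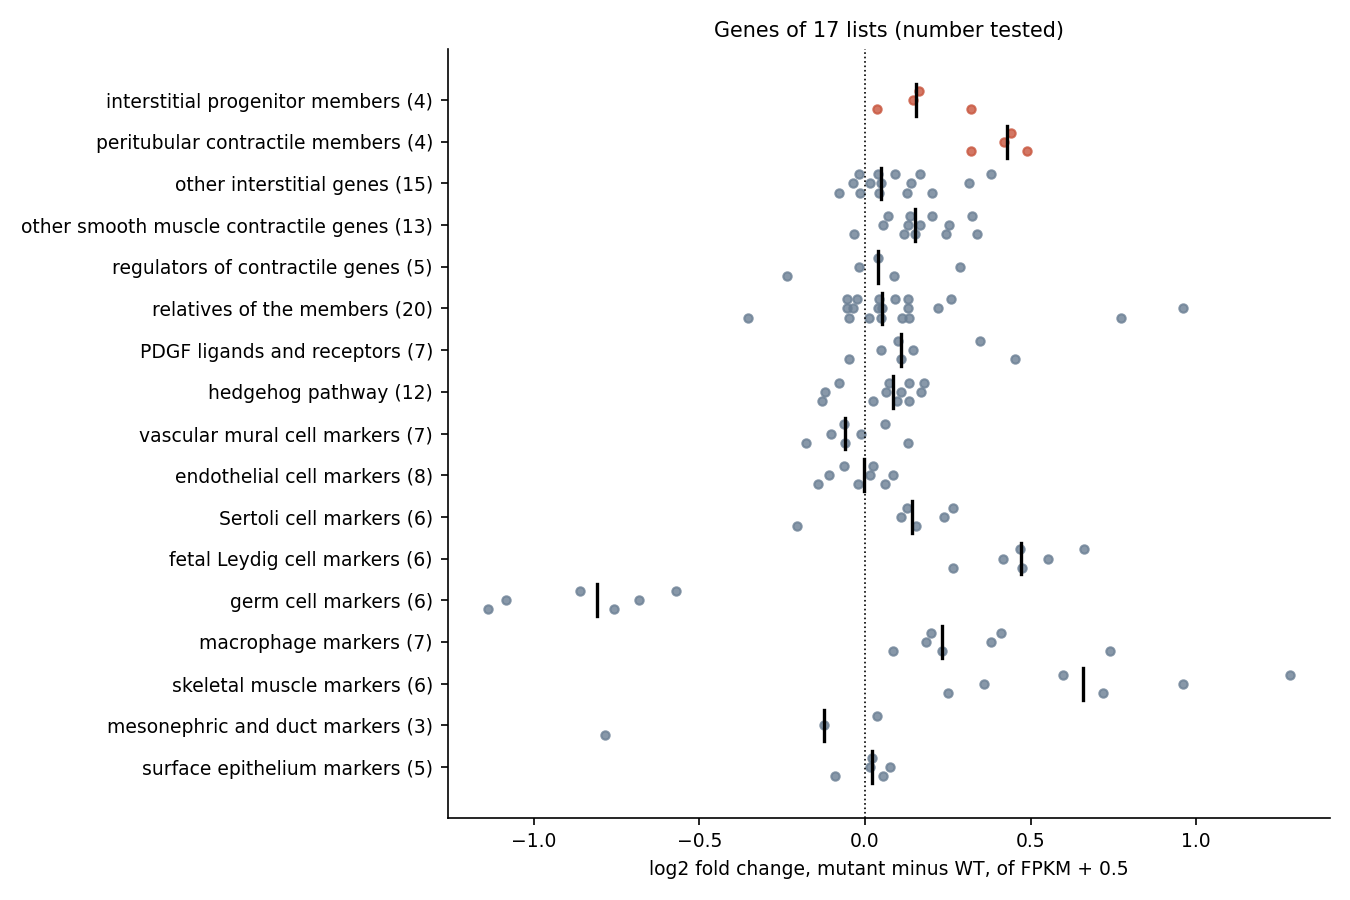
Log2 fold change of mutant over WT (horizontal axis, on FPKM + 0.5) of each gene tested in 17 lists, with the number tested in parentheses and a black line at the list's median; vertical spread within a list only separates the points. With all 7 libraries, the 8 genes (red) have medians of 0.15 and 0.43, fetal Leydig cell markers lie at 0.47 and germ cell markers at -0.81.

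Finally, the pattern of each gene over the 7 libraries was compared with that of all other genes tested, by the root mean square difference of log2(FPKM + 0.5) after centring, where 0 means the same pattern. *Myh11* and *Tagln* were close to each other (0.0627) and each was among the 3 genes nearest to the other, next to *Inhba* (0.0572) and Spata21 (0.0594) for *Myh11*, and to Spata21 (0.0625) and *Nfix* (0.0632) for *Tagln*. Among the 28 pairs of the 8 genes, *Myh11* and *Tagln* were the closest, *Pdgfra* and *Nr2f2* followed (0.0939), and *Tcf21* and *Myh11* were the farthest apart (0.402). *Acta2* was nearest to *Ncald*, *Slc16a7* and *Adcy7* (0.0453 to 0.0593), *Pdgfra* to *Zfp97*, *Frem1* and *Lrig3* (0.0351 to 0.0376), and *Nr2f2* to *Zfp641*, *Vash2* and *Zcchc11* (0.0196 to 0.0369). *Tcf21* was nearest to 1810026B05Rik, *Mbnl2* and *Ak5* (0.0405 to 0.0488), and *Maf* to *Ppp1r14b*, *Vps37b* and *Uckl1* (0.0643 to 0.0665). *Cnn1* had no gene as near, with *Glb1l3*, *Cdkn2c* and *Mndal* at 0.0832 to 0.107. A gene that varies little is near to many others, and the order over 7 libraries is a description of these libraries only.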

How the data were processed

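Sample titles gave the groups and replicate numbers. To make the gene table, the authors aligned reads to mm10 (TopHat2 2.0.12 in the submitters' processing notes, which also name Cuffnorm) and deposited FPKM per RefSeq gene, which include the library scaling of that workflow. The number of fragments behind an FPKM value is not given. In the repeat table the deposited counts are uniquely mapped reads per RepeatMasker locus, counted with HTSeq and not normalized, with 3454317 to 4670830 reads per library. The header of each table lacks 1 tab between 2 sample names, and columns were read by position with names in their written order; 0 columns of per-sample values were left out.

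limma 3.58.1 was run on log2(FPKM + 0.5) for genes whose mean reached 0.5 FPKM (trend, two-sided, R 4.3.3), with Benjamini-Hochberg adjustment over all genes tested and a threshold of 0.05. Fold changes on this scale understate those of low genes. Counts of loci wholly inside 1 protein-coding gene (GENCODE M21) were summed per gene and tested with edgeR 4.0.16 (quasi-likelihood test, TMM, two-sided) at a mean of at least 10 reads. Alternatives were other pseudocounts, filters and scalings, no trend, DESeq2 1.42.0, loci outside of exons, a replicate block and leaving out each library. Each library is 1 embryo, and p-values measure the spread between embryos. The labels give no batch.

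The 8 genes and the gene lists were chosen with earlier results of these data known. Genes named are the 8 in every library, *Glis3*, the 2 highest and 2 lowest log2 fold changes of each list (of which some are named), and the 3 genes most like each of the 8. Promoters were read from a RefSeq table in Python 3.11.15. *Maf*, *Myh11* and *Tagln* had no entry.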

Additional observations from a re-analysis of the deposited data

How the results depend on the processing

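None of the 8 genes passed the threshold under any alternative run, in either readout. Directions were kept in 117 of 119 values for FPKM and in 64 of 64 for repeat reads. These values are not independent. On FPKM the replicate block gave the same fold changes as leaving out mutant replicate 4. The filters and the fit without trend left the fold changes of the main run as they were. The exceptions were *Tcf21* without WT replicate 1 (log2 fold change -0.03105) and without mutant replicate 2 (-0.02379), within a range of -0.03 to 0.13 when each library was left out. On FPKM, *Pdgfra* came to 0.06 without mutant replicate 2 and *Cnn1* to 0.69 without WT replicate 2, and *Acta2* repeat reads came to 0.21 without WT replicate 1 and 0.76 without WT replicate 2. Over all alternatives adjusted p-values ranged from 0.0836 to 0.411 for *Maf* and from 0.194 to 0.437 for *Myh11* on FPKM, and from 0.0625 to 0.43 for *Myh11* on repeat reads, where loci outside of exons gave a log2 fold change of 0.82.

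The number of all genes past the threshold depended on the setting. For FPKM it was 1 as reported, 4 with no filter, 3 with quantile normalization, and from 1 to 722 when each library was left out, highest without the library labelled WT replicate 3. For repeat reads it was 1, with 47 by DESeq2, 50 with no filter, 25 with loci outside of exons and from 0 to 158 when each library was left out, highest without the same library. With a replicate block the numbers were 0 for FPKM and 0 for repeat reads. Deviations from the group means had correlations of 0.198, -0.177 and 0.229 between same-numbered libraries of the groups. Differently numbered libraries were not compared, so these values cannot decide whether the numbers pair the samples. Counts per list without the library labelled WT replicate 3 were added after seeing the data.

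Depth limits the repeat reads of *Tagln* and *Cnn1*, and the contractile genes rest on 3 WT libraries of which 1 stands apart.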
